A study of Nothobranchius furzeri with 3 samples.

Results

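Tunicamycin treatment of aged Nothobranchius furzeri, a short-lived killifish, was compared with DMSO in the basal layer of the fin epidermis, using the 3 aged (Tm) and 4 aged libraries of the 11 libraries in the series. The 7 libraries were chosen by their labels and by no measured value. The aged (Tm) fish were exposed to tunicamycin at 1 µg/mL overnight according to the labels, and the aged fish were submerged in DMSO. The other 4 libraries, from young fish in DMSO, entered the model to share its estimate of spread. They also entered the filter on low counts and the scaling factors, and a fit of the 7 libraries alone tested 4414 genes. The study's methods give a full day for the exposure. All fish were of the GRZ strain according to the study's methods, and no group carried an engineered allele according to the labels. In photo-isolation chemistry (PIC), caged reverse transcription primers are released by UV light only in the irradiated cells, here cells of that layer recognised by p63 staining, and each RNA molecule is counted once by its unique molecular identifier (UMI). The study's methods describe the sample numbers of its figure legends as biological replicates, and for PIC these were 4 young, 4 aged and 3 aged (Tm). The labels number the replicates but do not say whether each is a separate fish, so the p-values measure the spread between these libraries, which may be technical. In such bulk libraries, fewer cells of a type and less RNA per cell cannot be told apart.

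Tunicamycin blocks the first step of N-glycosylation, which DPAGT1 catalyses, so that proteins entering the endoplasmic reticulum (ER) fail to fold. The unfolded protein response then acts through the sensors IRE1, which splices the XBP1 mRNA, ATF6, and PERK, which slows translation and favours that of ATF4, a transcription factor of genes for amino acid supply and tRNA charging. Chaperones such as hspa5 (BiP), the ER-associated degradation (ERAD) machinery with the ATPase VCP, and the proteasome handle the misfolded protein. The basal layer holds the p63-positive keratinocytes that divide to renew the epidermis and that are anchored to the basement membrane by the integrin of ITGA6 and itgb4.

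The libraries differed in depth along with the treatment. Total counts were 346945, 319223 and 705538 in the aged (Tm) libraries, against 37655, 265509, 51321 and 180319 in the aged libraries, a ratio of means of 3.42 (two-sided exact permutation test over 35 assignments, p = 0.0286, the smallest it can give). Every aged (Tm) library was deeper than every aged library. At an equal depth of 35366 counts, the smallest total in the series, drawn at random from each library, 5197, 5098 and 7389 genes had a count in the aged (Tm) libraries, against 11574, 7266, 10884 and 8764 in the aged libraries (exact permutation p = 0.0857). A count of 0 allows up to 3 counts, which is 4.25 to 9.4 CPM (counts per 1000000 counts of a library) in the aged (Tm) libraries, against 79.7 and 58.5 CPM in aged replicates 1 and 3 and 11.3 and 16.6 CPM in aged replicates 2 and 4. These floors, and all intervals of counts, cover counting error only.

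Aged replicates 1 and 3, the shallowest of the 7, also stood apart in their profiles. Across the 3963 tested genes, Spearman correlations of log2 CPM were 0.861 to 0.909 among the aged (Tm) libraries, 0.752 between aged replicates 2 and 4, and 0.089 between aged replicates 1 and 2. Between the groups, aged replicate 2 had 0.641, 0.688 and 0.769 with aged (Tm) replicates 1, 2 and 3, the last above its value with aged replicate 4. Aged replicate 4 had 0.508, 0.517 and 0.646 with them. The genes share library depth, so these values are descriptions. List counts and the main genes are therefore given with and without aged replicates 1 and 3. The 3 barcodes of the aged (Tm) libraries were used again for aged libraries, and the labels give 1 library name per group, so that library preparation and tunicamycin cannot be told apart. The most abundant gene of each library reached similar counts in deep libraries, 3527 to 4317 in the aged (Tm) libraries against 4337 in aged replicate 2 and 3836 in aged replicate 4, while total counts differed far more; its part in the fold changes was not tested beyond leaving out the genes above 1000 counts, which left 796 genes higher and 751 lower.

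**Figure D1:**
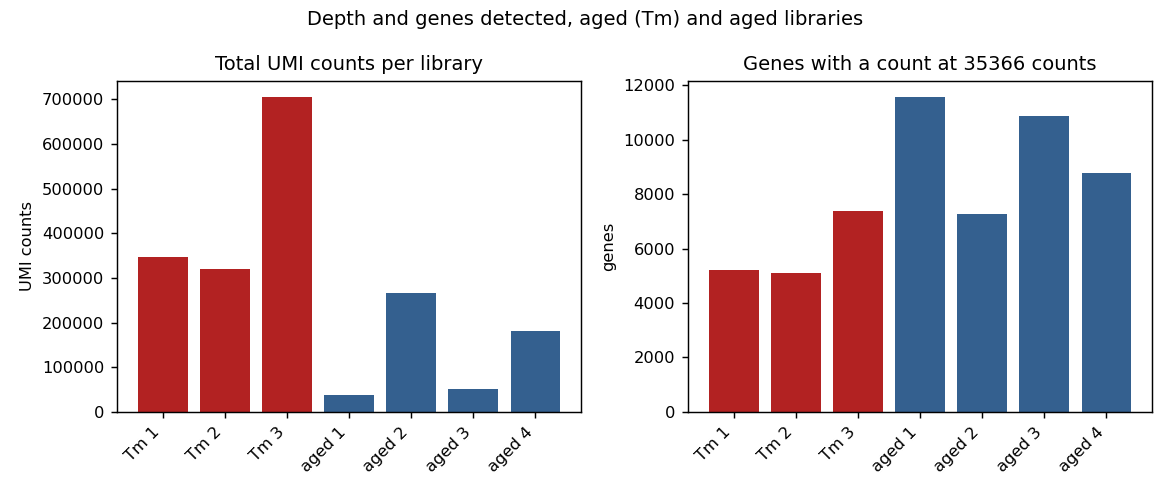
Total UMI counts (left) and genes with at least 1 count after thinning to 35366 counts (right) in the 3 aged (Tm) libraries (red) and 4 aged libraries (blue), 1 bar per library. The aged (Tm) libraries were the deepest, and aged replicates 1 and 3, the shallowest, had the most genes at equal depth.

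Many of the measured genes differed between aged (Tm) and aged, in both directions. Of 3963 genes tested with edgeR's quasi-likelihood test, 1534 (38.7%) passed the threshold of 0.1 on the adjusted p, 733 (18.5%) higher and 801 (20.2%) lower in aged (Tm), and 1680 genes had an unadjusted p below 0.05. The CPM ranges of the groups did not overlap for 665 genes (16.8%) that were higher and 766 genes (19.3%) that were lower in aged (Tm). The 733 genes that rose held 27.6, 24.6 and 18.3% of the counts in the aged (Tm) libraries, against 3.94, 8.34, 4.99 and 7.21% in the aged libraries. The 801 genes that fell held 1.24, 1.08 and 2.95% of the counts in the aged (Tm) libraries, against 16.4, 5.41, 13.3 and 7.96% in the aged libraries. Both sets were chosen by the contrast of these same libraries, so a gap between the groups follows from the choice. In the young libraries, whose levels did not enter the contrast, the genes that rose held 4.93 to 9.64% and the genes that fell 4.98 to 11.7%.

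The balance of rises and falls depended on scaling and on single libraries. The median log2 fold change of all tested genes was −0.03 with TMM factors, 0.18 with RLE factors, −0.52 with upper quartile factors and −0.58 with total counts alone, and these scalings gave 960 higher and 659 lower, 420 higher and 1225 lower, and 370 higher and 1025 lower genes for the last 3. Without aged replicates 1 and 3, 534 of 5383 genes (9.92%) were higher and 190 (3.53%) lower, and 397 and 143 of these were among the 733 and 801. List counts in this fit, and in each other setting, are to be read against the share of all genes in the same setting. At an equal depth of 35366 counts, 40 of 605 genes (6.61%) were higher and 104 (17.2%) lower, and DESeq2, which tested 9152 genes, called 1513 (16.5%) higher and 773 (8.45%) lower. Calls numbered 765 without aged (Tm) replicate 1, 714 without aged (Tm) replicate 2 and 1737 without aged (Tm) replicate 3. Higher genes numbered 457 and 460 without aged (Tm) replicates 1 and 2, and lower genes numbered 308 and 254 without these and 469, 459 and 507 without aged replicates 1, 3 and 4. No called gene had the opposite direction in any setting in which it was also called. Aged (Tm) replicate 3, the deepest library, lay nearest to the aged libraries, with the lowest aged (Tm) value for 413 of the 733 genes that rose and the highest for 720 of the 801 that fell.

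**Figure D2:**
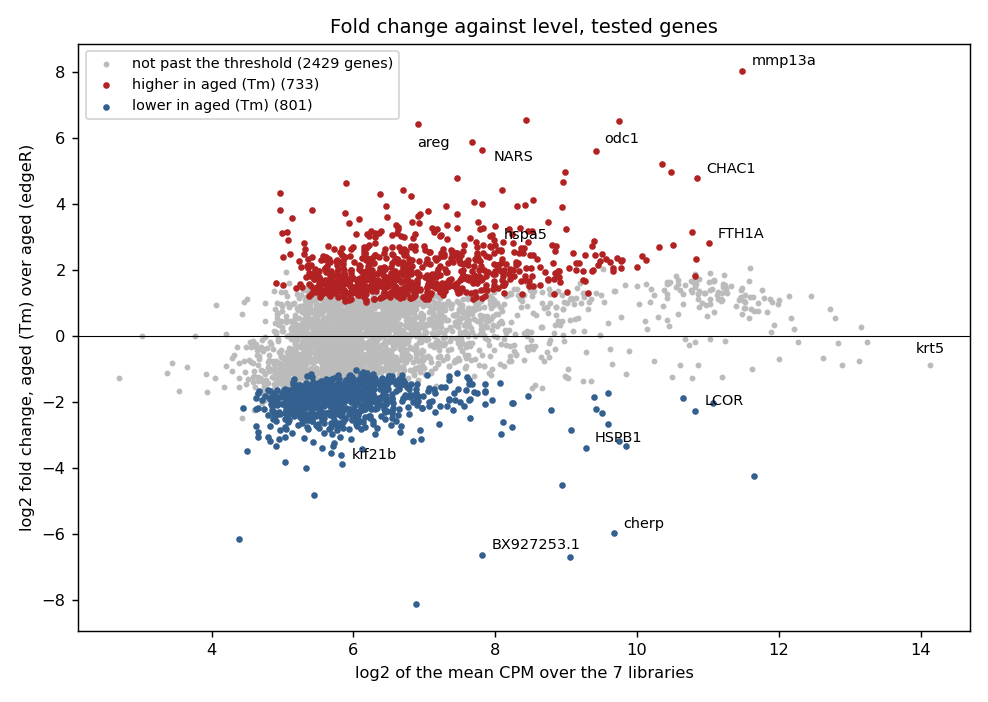
Log2 fold change of aged (Tm) over aged (edgeR) against the log2 mean CPM over the 7 libraries, 1 point per tested gene, with the 733 genes that rose in red, the 801 that fell in blue and the others in grey. Genes that rose reach to high levels, and genes that fell lie mostly at low levels.

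Of the tested genes, rises were commonest among abundant ones and falls among scarce ones. This pattern covers only genes that passed the filter on low counts, and its dependence on that filter was not tested. A scarce gene could pass that filter through the aged and young libraries alone, or through the 3 aged (Tm) libraries alone. Among the genes named below, areg, NARS, OLA.5669, SATL1, ZGMRPL4, GMPPB and ENSNFUG00015020952 were examples of the latter. They were tested because they were high in aged (Tm). mmp13a, odc1, ptgs2b and ssb also needed aged (Tm) libraries to pass the filter. Without the filter, 1405 of 22954 genes were higher and 173 lower, and 721 and 52 of these were among the 733 and 801. Of the 991 tested genes with the highest mean CPM, 332 rose and 74 fell, and of the 991 with the lowest, 60 rose and 281 fell. Of 105 tested lncRNA genes 3 rose and 59 fell (median log2 fold change −1.55), and without aged replicates 1 and 3 the numbers were 2 and 15 of 135. Of 3744 protein coding genes 716 rose and 704 fell, a split that followed the scaling and the libraries, with 362 higher and 908 lower under total counts alone and 517 higher and 167 lower of 5092 without aged replicates 1 and 3. Of 630 tested genes without a gene symbol 64 rose and 236 fell, and without those 2 libraries 51 rose and 66 fell of 854.

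mmp13a (ENSNFUG00015016769), a collagenase that cuts the fibrillar collagens of the dermis, had 10261, 8339 and 1341 CPM in the aged (Tm) libraries, against 53.1, 30.1, 0 and 55.5 CPM in the aged libraries. All 3 aged (Tm) values were far above all 4 aged values, and the log2 fold change was 8.03 ± 1.09 (SE; adjusted p = 0.000183). areg (ENSNFUG00015018534), which encodes the EGF receptor ligand amphiregulin, had 1038, 298 and 62.4 CPM in the aged (Tm) libraries, against 0, 15.1, 0 and 11.1 CPM in the aged libraries (log2 fold change 5.88, SE 0.95, adjusted p = 0.000659). odc1, the rate-limiting enzyme of polyamine synthesis, had 2701, 1413 and 503 CPM in the aged (Tm) libraries, against 53.1, 56.5, 0 and 49.9 CPM in the aged libraries (log2 fold change 5.61, SE 0.90). These genes were named from those whose groups did not overlap, so the lack of overlap follows from the choice. For each of them aged (Tm) replicate 3 was the lowest of the aged (Tm) libraries.

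CHAC1, an ATF4 target that breaks down glutathione, had 4793, 5943 and 1341 CPM in the aged (Tm) libraries, against 106, 207, 175 and 316 CPM in the aged libraries (log2 fold change 4.77, SE 0.85, adjusted p = 0.00143). ptgs2b, a cyclooxygenase of prostaglandin synthesis, had 1320, 332 and 93.6 CPM in the aged (Tm) libraries, against 53.1, 33.9, 58.5 and 27.7 CPM in the aged libraries (log2 fold change 4.43). tgm5l, a transglutaminase, rose by 4.66 and SATL1, which is named for a polyamine acetyltransferase, by 4.41 on the log2 scale. These genes too were chosen from those without overlap between the groups, and each kept its call without aged replicates 1 and 3. Other genes by rank were OLA.5669 (6.52), HDAC6 (4.97, as the table names it), ZGMRPL4 (4.33), and the genes without a symbol ENSNFUG00015020952 (6.54) and ENSNFUG00015018517 (5.21).

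By the size of the rise in CPM, the iron-storage subunit FTH1A, the G protein regulator RGS1 and the RNA helicase ddx5 also stood at the top. FTH1A had 4269, 4715 and 2751 CPM in the aged (Tm) libraries, against 26.6, 1224, 390 and 1093 CPM in the aged libraries (log2 fold change 2.81, SE 0.94, adjusted p = 0.0336). The groups did not overlap, but the aged values spread widely, and without aged replicates 1 and 3 the adjusted p was 0.130. RGS1 (log2 fold change 3.14) and ddx5 (2.76) stayed past the threshold there, and anxa2a, a membrane-binding annexin with a log2 fold change of 2.70, did not (adjusted p = 0.118). ssb, the La protein that binds new RNA polymerase III transcripts, had one of the smallest adjusted p (0.000659) with 291, 197 and 204 CPM in the aged (Tm) libraries, against 26.6, 18.8, 19.5 and 38.8 CPM in the aged libraries.

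The strongest falls had few counts left in the aged (Tm) libraries. An lncRNA gene without a symbol, ENSNFUG00015023845, had no count in any aged (Tm) library, against 452, 86.6, 156 and 128 CPM in the aged libraries, and was at least 60.7-fold lower in aged (Tm) with a floor of 3 counts over the group. ENSNFUG00015006725, a protein coding gene, had 5.77, 3.13 and 11.3 CPM in the aged (Tm) libraries, against 584, 1122, 857 and 1137 CPM in the aged libraries (log2 fold change −6.68, SE 0.92). cherp, an ER-associated protein that acts in calcium release and splicing, had 0, 12.5 and 36.9 CPM in the aged (Tm) libraries, against 2178, 761, 1910 and 826 CPM in the aged libraries (log2 fold change −5.97, SE 0.94, adjusted p = 0.000576). The deep aged replicates 2 and 4 were also far above the aged (Tm) libraries for these genes, and each kept its call without replicates 1 and 3.

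HSPB1, a small heat shock protein, fell, with 49.0, 68.9 and 87.9 CPM in the aged (Tm) libraries, against 1992, 437, 1091 and 616 CPM in the aged libraries (log2 fold change −3.39, SE 0.77, adjusted p = 0.00593). BX927253.1 (−6.63), the kinesin kif21b (−3.89), the olfactory receptor olfcx3 (−3.49), the neuropeptide gene cart2 (−3.43), LRRC16B, a regulator of actin capping (−3.40), and the homeobox gene DLX5A (−3.32) also fell without overlap. All of these except olfcx3, which was too low to test there, kept their calls without aged replicates 1 and 3. Apart from DLX5A, they were chosen from genes without overlap. olfcx3 had only 10 counts in the aged libraries together. For cart2, aged (Tm) replicate 3 had 24.1 CPM, just below the 26.6 CPM of aged replicate 1, which is 1 count. Among abundant genes, the corepressor LCOR had 314, 338 and 646 CPM in the aged (Tm) libraries, against 4568, 1190, 3410 and 2202 CPM in the aged libraries (log2 fold change −2.27, SE 0.74), and the splicing regulator rbm5 fell by 1.87 on the log2 scale. Both were highest in aged replicates 1 and 3, and without them LCOR had an adjusted p of 0.154 and rbm5 of 0.340. pofut2, which fell with overlapping ranges, was highest in the same libraries and had a log2 fold change of 0.14 without them.

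**Figure D3:**
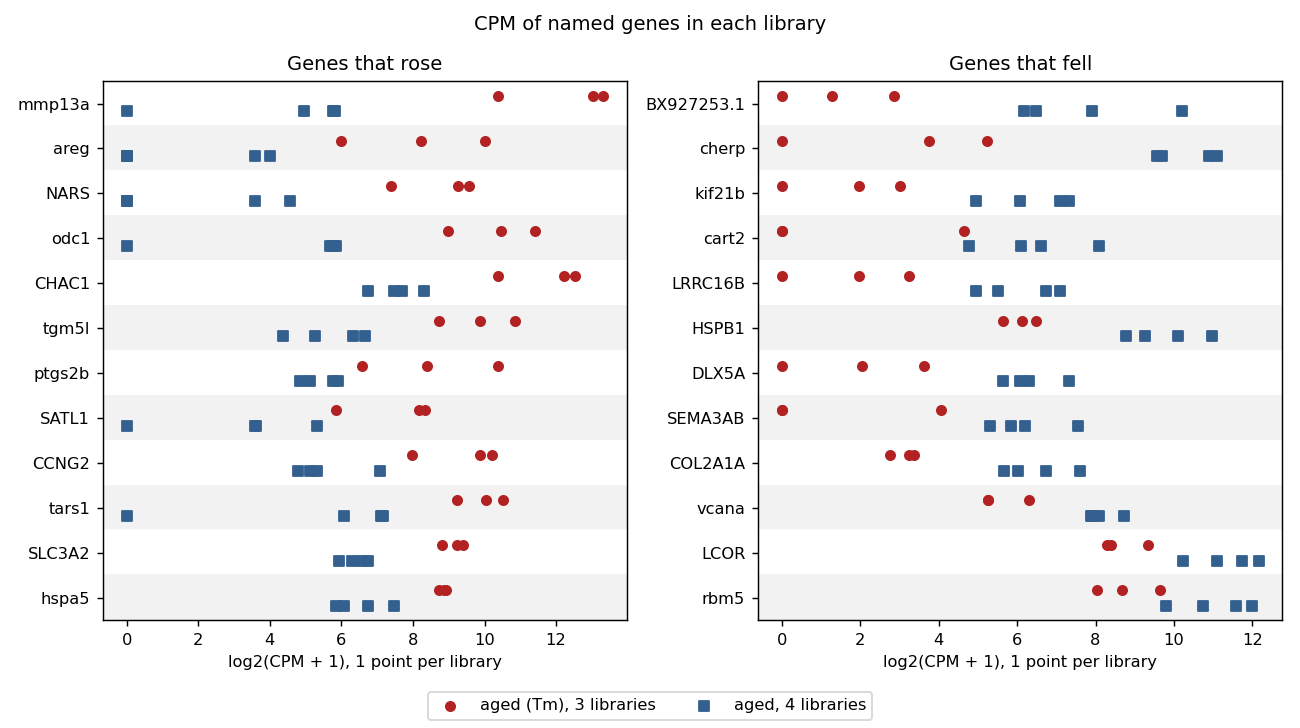
Log2(CPM + 1) of 12 genes that rose (left) and 12 that fell (right), with aged (Tm) libraries as red circles above aged libraries as blue squares, 1 point per library. The groups do not overlap for any of these genes, many of which were chosen for that, and points at 0 mark libraries with no count.

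Genes of the ATF4 branch rose as a group. Of 23 tested members of the list of ATF4 targets and amino acid metabolism, 17 rose and none fell (median log2 fold change 2.39, against −0.03 over all tested genes). The summed level of the whole list was 13792, 14733 and 6602 CPM in the aged (Tm) libraries, against 2098, 2196, 2221 and 2679 CPM in the aged libraries. The asparaginyl-tRNA synthetase NARS had 764, 617 and 166 CPM in the aged (Tm) libraries, against 0, 22.6, 0 and 11.1 CPM in the aged libraries (log2 fold change 5.62, SE 0.85, adjusted p = 0.000408). tars1, the threonyl-tRNA synthetase, had 1464, 1049 and 600 CPM in the aged (Tm) libraries, against 0, 143, 136 and 66.6 CPM in the aged libraries (log2 fold change 3.89). SLC3A2, the shared heavy chain of several amino acid transporters, rose by 3.24 and CBS, which commits homocysteine to cysteine synthesis, by 2.87 on the log2 scale. With aged replicates 1 and 3 left out, 20 of 34 members rose and none fell, and at equal depth 4 of 6 rose. A member could pass the filter on low counts through the aged (Tm) libraries alone. In the fit without that filter, 27 of 63 rose and none fell.

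Several regulators of this branch were too scarce for the filter on low counts and were read from the fit without a filter. ASNS, the asparagine synthetase and a classic ATF4 target, had 176, 448 and 51.0 CPM in the aged (Tm) libraries, against 0, 15.1, 0 and 11.1 CPM in the aged libraries (log2 fold change 5.37, adjusted p = 5.31e-08 in the unfiltered edgeR fit). That fit covers 22954 genes, so its adjusted p cannot be set against those of the main fit. In the filtered edgeR fit without aged replicates 1 and 3, ASNS had a log2 fold change of 4.57 and an adjusted p of 0.00385. DDIT3, which encodes the transcription factor CHOP, had 23.1, 18.8 and 32.6 CPM in the aged (Tm) libraries, against 0, 7.53, 0 and 5.55 CPM in the aged libraries (log2 fold change 2.94, adjusted p = 0.0175). Of the ATF4 genes, ATF4B2 passed the filter and rose by 3.17 on the log2 scale (adjusted p = 0.00225), and atf4a had a log2 fold change of 2.20 with overlapping ranges in the unfiltered fit (adjusted p = 0.0174). XBP1 itself was at the limit of detection, with 0, 0 and 1.42 CPM in the aged (Tm) libraries, against 0, 0, 19.5 and 5.55 CPM in the aged libraries, and counts per gene do not tell its spliced form from the unspliced one.

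Of 12 tested ER chaperones and disulfide isomerases 10 rose and none fell (median log2 fold change 1.74), and with total counts alone 5 rose. A member could pass the filter on low counts through the aged (Tm) libraries alone. In the unfiltered fit 13 of the 48 members rose and none fell (median 0.42). hspa5, the ER HSP70 chaperone that also holds the stress sensors inactive, had 464, 489 and 424 CPM in the aged (Tm) libraries, against 106, 56.5, 175 and 66.6 CPM in the aged libraries (log2 fold change 2.76, SE 0.55, adjusted p = 0.00261). HSP90B1, the ER HSP90, had 1297, 1516 and 1668 CPM in the aged (Tm) libraries, against 372, 309, 643 and 349 CPM in the aged libraries (log2 fold change 2.27, SE 0.62). Here aged (Tm) replicate 3 was close to the other 2, unlike for mmp13a or CHAC1. The disulfide isomerase P4HB (1.84) and selenof (2.23), a selenoprotein of ER quality control, also rose. PDIA4 was read only from the unfiltered fit (log2 fold change 1.90, adjusted p = 0.0732, ranges overlapping), and the 2 DNAJB9 entries had at most 11.3 CPM in an aged (Tm) library, against at most 26.6 CPM in an aged library. Without aged replicates 1 and 3, 9 of 17 list members rose and none fell, and after thinning, where 3 members could be tested, none passed (log2 fold change of hspa5 0.50).

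Of 27 tested genes of ER stress sensing, ERAD and ER translocation, 13 rose and none fell (median log2 fold change 1.22). The rises numbered 8 with total counts alone and 6 of 30 without aged (Tm) replicate 2. Without aged replicates 1 and 3 they were 5 of 37, namely ATF4B2, VCP, nansb, SSR4 and SEC11A, against 9.92% of all genes in that fit. In the unfiltered fit 23 of 78 members rose and none fell (median 1.09). VCP, the ATPase that pulls ubiquitylated proteins out of the ER membrane, had 323, 179 and 370 CPM in the aged (Tm) libraries, against 106, 67.8, 175 and 111 CPM in the aged libraries (log2 fold change 1.78, SE 0.52, adjusted p = 0.0195), and with total counts as the only scaling its adjusted p was 0.125. The Sec61 channel subunits SEC61A1 (1.97) and sec61g (2.11), the translocon-associated ssr2 (2.22) and the ERAD membrane protein DERL1 (1.36) rose with all 7 libraries, and each missed the threshold without aged replicates 1 and 3. The IRE1 genes, looked up after the other values were seen, did not pass (ERN1 log2 fold change −0.64, adjusted p = 0.299, and ern2 −0.88, adjusted p = 0.285). SEL1L, an ERAD scaffold, had 0, 9.4 and 8.5 CPM in the aged (Tm) libraries, against 79.7, 0, 0 and 22.2 CPM in the aged libraries.

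N-glycosylation genes, the pathway that tunicamycin inhibits, rose in 7 of 16 tested members and fell in 2 (median log2 fold change 1.24). In the unfiltered fit 10 of 57 members rose and none fell (median 0.09). GMPPB, which makes GDP-mannose, had 80.7, 59.5 and 65.2 CPM in the aged (Tm) libraries, against 0, 7.53, 0 and 5.55 CPM in the aged libraries (log2 fold change 3.82, SE 0.78). It passed the filter on low counts through the aged (Tm) libraries alone. uap1, which makes UDP-GlcNAc, the sugar donor of the blocked step, rose by 2.33, and the oligosaccharyltransferase subunits dad1 and ost4 by 1.92 and 1.85 on the log2 scale. gfpt2, of the hexosamine pathway, and the mannosyltransferase alg9 fell by 1.18 and 1.32 with overlapping ranges. DPAGT1, the enzyme that tunicamycin binds, had 20.2, 28.2 and 42.5 CPM in the aged (Tm) libraries, against 0, 15.1, 19.5 and 11.1 CPM in the aged libraries (log2 fold change 2.1, adjusted p = 0.0657 in the unfiltered fit). Without aged replicates 1 and 3, GMPPB, uap1 and DHDDS rose, 3 of 22 tested, against 9.92% of all genes in that fit. Numbers of 4, 3 and 2 members rose without aged replicate 4, aged (Tm) replicate 1 and aged (Tm) replicate 2. In ER to Golgi traffic, 13 of 29 tested members rose, among them the coatomer genes COPB2 (1.72), copg2 (1.47) and copb1 (1.38) and the small GTPase rab1aa (1.69). golga2 and 1 of the 2 ergic2 entries fell. The rises of this list were 7 of 36 without aged replicates 1 and 3, 8 of 29 with total counts alone, and 20 of 78 in the unfiltered fit (median 0.86).

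Proteasome genes rose together. Of 29 tested members 23 rose and none fell (median log2 fold change 1.93), and the summed level was 5557, 5698 and 5372 CPM in the aged (Tm) libraries, against 2921, 2561, 2669 and 2468 CPM in the aged libraries. The groups did not overlap, and the spread within each was small beside the gap. PSMB4, a core particle subunit, had 375, 354 and 298 CPM in the aged (Tm) libraries, against 26.6, 90.4, 136 and 94.3 CPM in the aged libraries (log2 fold change 2.31, SE 0.55, adjusted p = 0.00800). PSMB6, a catalytic subunit, rose by 3.58, PSMD14, the deubiquitylase of the lid, by 2.44, and PSMC3, an ATPase of the base, by 2.25 on the log2 scale. Without aged replicates 1 and 3, 22 of 38 members rose and none fell, and with total counts alone 14 of 29 rose.

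Cytosolic chaperones rose in 20 of 33 tested members (median log2 fold change 1.57) and only HSPB1 fell. Subunits of the chaperonin that folds actin and tubulin were among them, with cct5 at 2.52 and CCT3 at 2.07, as were the HSP90 co-chaperone PTGES3A (2.62) and the mitochondrial hspe1 (2.05). With aged replicates 1 and 3 left out, 14 of 39 rose and HSPB1 again fell alone, and without aged (Tm) replicate 2, 13 of 32 rose. The actin and tubulin list had 11 of 33 rises, with the crosslinker ACTN4 (2.17), tpm4a (1.77) and MYH9 (2.31), and falls of coro1cb, myh10 and flnca, but 5 rises and 4 falls with total counts alone and 5 rises of 30 without aged (Tm) replicate 1 or 7 of 32 without replicate 2. In the fit without aged replicates 1 and 3, ACTN4, MYH9, myh9b and WDR1 rose of 34 tested and none fell. MYH9 rested on aged (Tm) replicate 3, at 133, 62.7 and 763 CPM in the aged (Tm) libraries, against 106, 26.4, 58.5 and 111 CPM in the aged libraries.

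**Figure D4:**
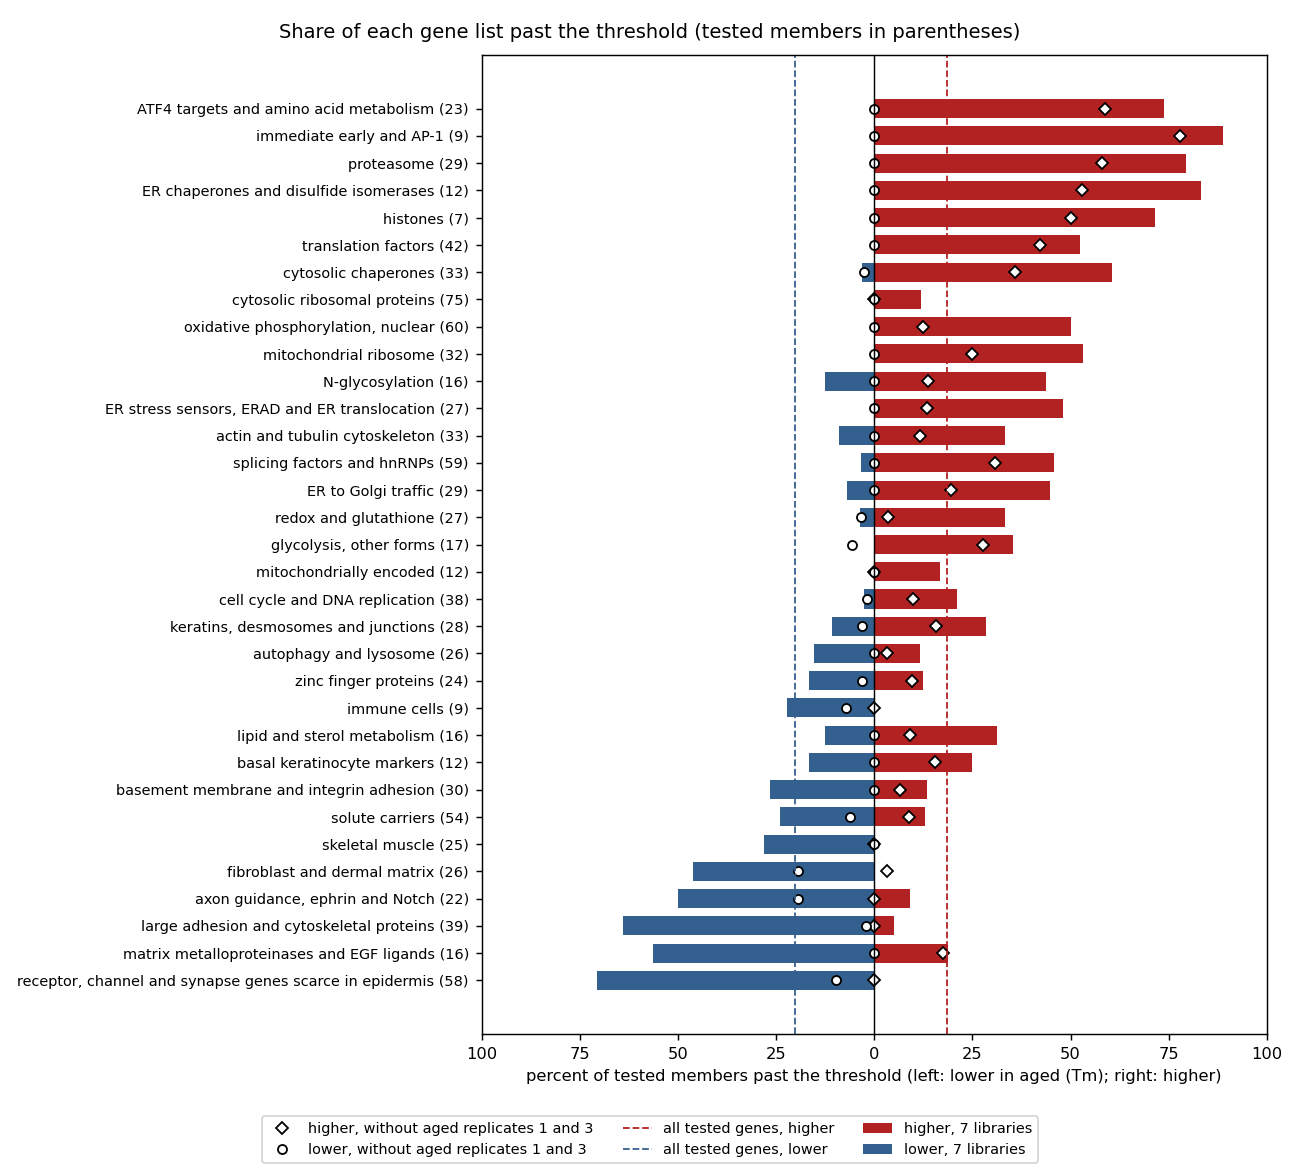
Percent of tested members of each list that were higher (red, right) or lower (blue, left) in aged (Tm), for the lists with at least 5 tested members. Dashed lines give all tested genes in the fit with all 7 libraries. Open symbols give the fit without aged replicates 1 and 3. In that fit 9.92% of all genes were higher and 3.53% lower, so the dashed lines do not apply to the open symbols. The ATF4, ER chaperone, proteasome and immediate early lists stay far to the right in both fits. Most falls shrink in the second, as does the share of falls over all genes.

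Translation factors had 22 of 42 rises and no fall (median log2 fold change 1.59), 19 of 45 rises without aged replicates 1 and 3, and 14 of 42 with total counts alone. At equal depth 3 of 24 rose and 1 fell. EIF3JB, a subunit of the initiation factor eIF3, had 533, 423 and 371 CPM in the aged (Tm) libraries, against 0, 45.2, 77.9 and 11.1 CPM in the aged libraries (log2 fold change 4.06, SE 0.64, adjusted p = 0.000576). EIF6, which keeps ribosomal subunits apart, rose by 2.45 and SERBP1, which sits on idle ribosomes, by 1.96 on the log2 scale. Splicing factors and hnRNPs had 27 of 59 rises (median 1.16), led by the Sm protein snrpf (3.45) and ddx5, and falls of rbm5 and HNRNPK; without aged replicates 1 and 3, 19 of 62 rose and none fell. The rises of this list numbered 14 with total counts alone, 17 without aged (Tm) replicate 1 and 41 without aged (Tm) replicate 3, and at equal depth 2 of 15 rose and 1 fell (median −0.27).

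Cytosolic ribosomal proteins were all on the positive side, 75 of 75 tested, but only 9 passed (median log2 fold change 1.43). Their summed level was 221447, 249490 and 163818 CPM in the aged (Tm) libraries, against 17182, 202539, 48362 and 145359 CPM in the aged libraries. Aged replicate 2 lay within the aged (Tm) range, and the shallow aged replicates 1 and 3 were far below it. RPL10 (2.37), RPS19 (2.07), RPS10 (2.1), rpl22l1 (2.43) and rps13 (2.57) were among the 9, and without aged replicates 1 and 3 none of 76 passed (median 0.79). Of that list, 3 of 74 rose after thinning. The count moved widely with the setting, to 44 without aged replicate 2, 4 without aged replicate 3, 3, 1 and 18 without aged (Tm) replicates 1, 2 and 3, 32 with limma voom, 27 with the replicate block, 22 of 76 with DESeq2 and 19 with RLE factors.

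Nuclear genes of oxidative phosphorylation rose in 30 of 60 tested members with none falling (median log2 fold change 1.41). CYCSB, a cytochrome c, had 185, 128 and 125 CPM in the aged (Tm) libraries, against 0, 7.53, 58.5 and 27.7 CPM in the aged libraries (log2 fold change 3.17, SE 0.65). ATP5G3A, of the ATP synthase ring, rose by 2.31 and COX7A3 by 1.55 on the log2 scale. The summed level was 15948, 19269 and 16166 CPM in the aged (Tm) libraries, against 2682, 12591, 5047 and 9045 CPM in the aged libraries, lowest in the shallow aged libraries. Once aged replicates 1 and 3 were dropped, 8 of 65 rose, against 9.92% of all genes in that fit. After thinning none of 22 rose (median 0.16). Total counts alone gave 16 rises, and leaving out aged (Tm) replicate 2 gave 14 of 59. The mitochondrial ribosome had 17 of 32 rises and no fall (median 1.26), with MRPS25 (3.02) and MRPS34 (3.01) first, and 11 of 44 without aged replicates 1 and 3. Its rises numbered 7 with total counts alone, and 10, 9 and 26 without aged (Tm) replicates 1, 2 and 3. Of 12 tested genes encoded in mitochondria, ATP6 (2.29) and ND3 (1.81) rose (16.7%, against 18.5% of all tested genes), and neither passed without aged replicates 1 and 3.

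Immediate early genes, which signals to the cell switch on within minutes, rose in 8 of 9 tested members (median log2 fold change 1.97) and in 7 of 9 without aged replicates 1 and 3, but in 4 of 9 with total counts alone, 4 of 10 without aged (Tm) replicate 1 and 5 of 9 without aged replicate 4. FOS, a subunit of AP-1, had 2436, 749 and 112 CPM in the aged (Tm) libraries, against 133, 45.2, 39.0 and 27.7 CPM in the aged libraries (log2 fold change 4.97, SE 0.93). Aged (Tm) replicate 3 fell below aged replicate 1, so the groups overlapped. FOSL2 (2.41), BTG1 (2.74) and KLF2 (1.97) rose as well. Of the whole immediate early list, 13 of 37 rose and none fell in the unfiltered fit. In the list of matrix metalloproteinases and EGF ligands the rises were mmp13a, areg and HBEGFA, another EGF receptor ligand, while 9 of 16 tested members fell, among them both ADAM12 entries (−1.98 and −2.68) and ADAMTS18 (−1.74). When aged replicates 1 and 3 were left out, no member of this list fell, and mmp9 joined the 3 that rose. The falls numbered 2 without aged (Tm) replicate 1 or 2, 4 without aged replicate 1, and 5 without aged replicate 2 or 3. In the unfiltered fit, none of 66 members fell and 6 rose.

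Of 38 tested cell cycle and DNA replication genes, 8 (21.1%) rose and 1 (2.63%) fell (median log2 fold change 0.53). Of all tested genes, 18.5% rose and 20.2% fell, so the share of rises was close to that of all genes and the share of falls was below it. In the unfiltered fit 16 of 111 rose and none fell, against 1405 and 173 of 22954 genes. DESeq2 called 20 of 78 higher and 1 lower, against 1513 and 773 of 9152 genes. With total counts alone 4 rose and 2 fell (median 0.03), and at equal depth none of 7 rose and 1 fell (median −1.35). pcna, the replication clamp, had 202, 392 and 554 CPM in the aged (Tm) libraries, against 53.1, 188, 19.5 and 122 CPM in the aged libraries (log2 fold change 2.01, SE 0.60, adjusted p = 0.0211). The groups did not overlap, with the lowest aged (Tm) library just above the highest aged one, and without aged replicates 1 and 3 the adjusted p was 0.123. MCM2, of the replicative helicase, had 254, 182 and 150 CPM in the aged (Tm) libraries, against 26.6, 26.4, 0 and 44.4 CPM in the aged libraries (log2 fold change 3.11, SE 0.56). CCNG2, a cyclin associated with cell cycle arrest, rose by 4.1 in 1 of its 2 entries, and the replicative polymerase subunit POLD2 fell by 1.46 on the log2 scale. mki67, a marker of dividing cells, had 0, 12.5 and 42.5 CPM in the aged (Tm) libraries, against 26.6, 22.6, 58.5 and 11.1 CPM in the aged libraries (log2 fold change 0.65, adjusted p = 0.635 in the unfiltered fit). In the fit without aged replicates 1 and 3, MCM2, CCNG2, CDKN1A, RRM2 and prim1 rose and POLD2 fell, of 51 tested. Of all genes in that fit, 9.92% rose and 3.53% fell. Without aged (Tm) replicate 2, 5 of 32 cell cycle genes rose. Of 7 tested histone and HMG genes, 5 rose, among them 2 of 3 entries named H3F3B.1 (2.82 and 2.15), HMGB2A (2.07), H2AFVB (1.68) and H2AFVA (1.45). Both H3F3B.1 entries and H2AFVB, with hist1h2a11, rose without aged replicates 1 and 3, and HMGB2A and H2AFVA were not among the rises there. Histone rises numbered 3 of 7 with total counts alone and without aged (Tm) replicate 1.

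Falls outnumbered rises in lists of cell surface signalling and adhesion. In the list of receptors, channels and synaptic proteins, chosen as scarce in epidermis, 41 of 58 tested members fell and none rose (median log2 fold change −1.83), while 342 further members were too low to test. A scarce gene could pass the filter on low counts through the aged and young libraries alone, so the share of falls among tested members depends on the filter. In the fit without a filter, 8 of 400 members fell and 1 rose (median −0.77). The calcium channel subunit CACNA2D1 had 20.2, 3.13 and 26.9 CPM in the aged (Tm) libraries, against 239, 30.1, 136 and 61.0 CPM in the aged libraries (log2 fold change −1.96, SE 0.66, adjusted p = 0.0336). The protocadherin pcdh15a (−1.73) and the channel subunit cacna1ab (−1.32) also fell. The summed level was 1706, 1435 and 3482 CPM in the aged (Tm) libraries, against 16731, 4102, 12665 and 6527 CPM in the aged libraries, highest in the shallowest and lowest in the deepest of the aged libraries. With aged replicates 1 and 3 left out, 6 of 61 fell and none rose, with CACNA2D1, pcdh15a and cacna1ab not past the threshold. The falls numbered 17 and 12 of 57 and 27 of 56 without aged (Tm) replicates 1, 2 and 3, and 20 of 46, 23 of 30 and 23 of 52 without aged replicates 1, 2 and 3.

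Large adhesion and cytoskeletal proteins showed the same picture, with 25 of 39 tested members lower and LRP10 and myo1eb higher (median log2 fold change −1.56), but only dnah5 fell, of 46 tested, without aged replicates 1 and 3. CSMD1 (−2.23), the ankyrin ank3a (−1.82) and the nuclear envelope protein syne1b (−1.56) were among them. Leaving out aged (Tm) replicate 1 or 2 gave 10 and 7 falls of 46, and leaving out aged replicate 1, 3 or 4 gave 15 and 12 of 39 and 16 of 44. In the fit without a filter on low counts, 2 of 100 fell and 2 rose. In axon guidance, ephrin and Notch signalling 11 of 22 fell and 2 rose (median −1.52). SEMA3AB, a secreted semaphorin, had 0, 0 and 15.6 CPM in the aged (Tm) libraries, against 186, 56.5, 39.0 and 72.1 CPM in the aged libraries (log2 fold change −3.23, SE 0.82, adjusted p = 0.0107). The Hes-family repressor HER9 (−1.47) fell, and sema4e (1.65) and the ephrin receptor EPHA2 (1.35) rose. Once aged replicates 1 and 3 were dropped, 7 of 36 fell, SEMA3AB and HER9 among them, and none rose. Without aged (Tm) replicates 1 and 2, left out in turn, 5 and 7 of 27 fell, and the unfiltered fit gave 2 falls and 2 rises of 114.

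**Figure D5:**
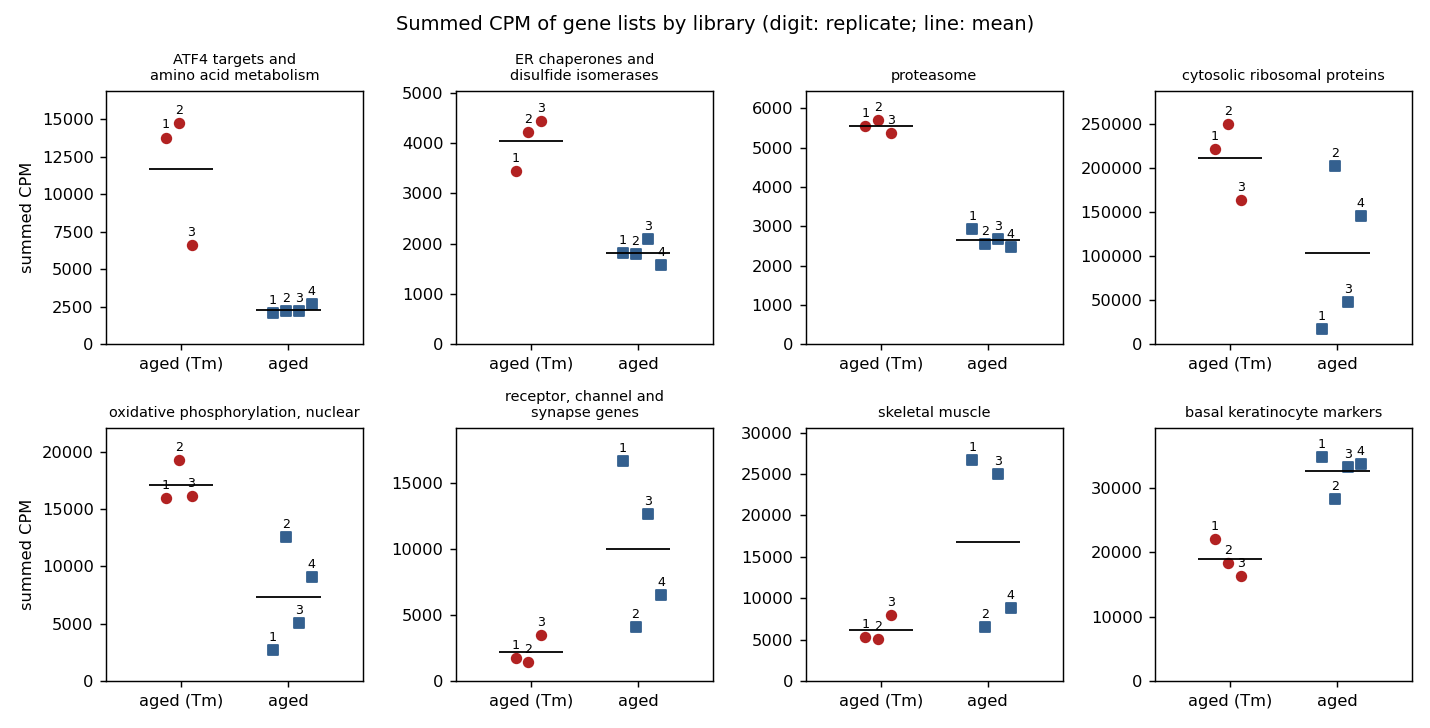
Summed CPM of 8 gene lists, 1 point per library with its replicate number, aged (Tm) in red and aged in blue, and a line at the group mean. The ATF4, ER chaperone and proteasome lists separate the groups with all aged libraries close together, whereas the ribosomal, oxidative phosphorylation, receptor and muscle lists spread within the aged group, with replicates 1 and 3 at 1 end.

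The irradiated cells carried their defining markers in both groups. tp63, which encodes the protein used to find the cells, had 1251, 1673 and 1548 CPM in the aged (Tm) libraries, against 319, 1145, 799 and 1381 CPM in the aged libraries (log2 fold change 1.03, adjusted p = 0.272). krt5, the basal keratin, had 10010, 11049 and 6119 CPM in the aged (Tm) libraries, against 32187, 16335, 28663 and 21273 CPM in the aged libraries. Its CPM ranges did not overlap, but the edgeR value on the TMM scale was −0.89 with an adjusted p of 0.391, and its counts in the deep libraries, 3473, 3527 and 4317 in aged (Tm) against 4337 and 3836 in aged replicates 2 and 4, were at the top of what any gene reached. The whole basal marker list, krt5 included, summed to 22096, 18319 and 16396 CPM in the aged (Tm) libraries, against 34922, 28372, 33339 and 33779 CPM in the aged libraries, without overlap. That gap rested on krt5, since the other markers summed to 12085, 7271 and 10277 CPM in the aged (Tm) libraries, against 2735, 12037, 4676 and 12506 CPM in the aged libraries, which overlapped. Of 12 tested basal markers, grhl3 (2.42), ITGA6 (2.42) and itgb4 (2.20) rose and tfap2a (−1.50) and ITGA6A (−1.89) fell, and the median changed sign between scalings (0.10 with TMM, −0.38 with total counts alone). Of these, ITGA6 and grhl3 alone rose without aged replicates 1 and 3, where 13 markers were tested and none fell. Keratin, desmosome and junction genes had 8 of 28 rises (28.6%), with the desmosomal dspa (1.90) and DSC2L (1.81), ANXA1A (2.16) and the transglutaminase tgm1l2 (3.92), and falls of tjp1b (−2.16), tjp1a and PKP4 (10.7%). The whole list summed to 40050, 35580 and 31715 CPM in the aged (Tm) libraries, against 48334, 58552, 52980 and 67569 CPM in the aged libraries. These sums were lower without overlap in CPM, which carry no TMM factors. With TMM factors the median log2 fold change of the 28 tested members was 0.44. The part of single keratins in that gap was not tested. With total counts alone 7 rose and 4 fell (median −0.11), and at equal depth 1 of 11 rose and 3 fell (median −0.52). Without aged (Tm) replicate 1, 4 of 24 rose. In the fit without aged replicates 1 and 3, tgm1l2, tgm1l1, CTNNB1, oclnb and tjp3 rose and krt1-c5 fell of 32 tested, and the other genes just named were not past the threshold or not tested. For basement membrane and integrin adhesion, 8 of 30 tested members (26.7%) fell, among them COL4A3 (−1.76) and tln2b (−2.68), and ITGA6, itgb4, ITGB1 and plecb rose (13.3%). Of all tested genes, 20.2% fell and 18.5% rose, so these shares were not far from those of all genes. Without aged replicates 1 and 3 no member of this list fell, and ITGA6 and ITGB1 rose. Falls of that list numbered 2 without aged (Tm) replicate 1 or 2 or aged replicate 4, and 4 without aged replicate 1 or 3. In the unfiltered fit, none of its 55 members fell and 3 rose.

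Markers of muscle and dermis had lower summed levels in the aged (Tm) libraries. The whole skeletal muscle list of 79 genes summed to 5350, 5009 and 8002 CPM in the aged (Tm) libraries, against 26743, 6565, 25019 and 8840 CPM in the aged libraries. Of 25 tested muscle genes 7 fell, including casq1a (−1.87) and MYOM2 (−1.17), none rose, and none passed without aged replicates 1 and 3. The muscle falls numbered 1, 0 and 3 without aged (Tm) replicates 1, 2 and 3, and 2, 12, 1 and 3 without aged replicates 1, 2, 3 and 4. Without the filter on low counts, 1 of the 79 muscle genes fell. The fibroblast and dermal matrix list of 62 genes summed to 1245, 1106 and 3141 CPM in the aged (Tm) libraries, against 6135, 5793, 4715 and 3849 CPM in the aged libraries, without overlap. Of 26 tested members 12 fell and none rose, and without aged replicates 1 and 3, 6 of 31 fell and THBS1 rose. Leaving out aged (Tm) replicate 1 or 2 gave 5 and 6 falls of 29, and the unfiltered fit gave 2 falls and 1 rise of 62. vcana, the proteoglycan versican, had 37.5, 37.6 and 78.0 CPM in the aged (Tm) libraries, against 425, 237, 273 and 239 CPM in the aged libraries (log2 fold change −2.11, SE 0.52, adjusted p = 0.00878), and the cartilage collagen COL2A1A fell by 3.13 on the log2 scale.

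The 29 immune genes summed to 1522, 1826 and 1911 CPM in the aged (Tm) libraries, against 983, 2501, 1461 and 2529 CPM in the aged libraries. Of 9 tested, ptprc, the pan-leukocyte CD45 (−1.12), and CD74B, of antigen presentation (−2.53), fell. That share of 22.2% was near the 20.2% of all tested genes, and CD74B alone fell without aged replicates 1 and 3. The 18 pigment cell genes summed to 176, 335 and 581 CPM in the aged (Tm) libraries, against 558, 508, 448 and 466 CPM in the aged libraries, and none of 3 tested passed. The 11 erythrocyte genes summed to 37, 144 and 81 CPM in the aged (Tm) libraries, against 266, 124, 97 and 194 CPM in the aged libraries, and none was high enough to test. The part of these other cells in the falls of the matrix, receptor and muscle genes was not tested.

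Glycolytic genes other than the muscle forms rose in 6 of 17 tested members and none fell (median log2 fold change 0.76). PGAM1A had 242, 163 and 86.5 CPM in the aged (Tm) libraries, against 0, 30.1, 0 and 33.3 CPM in the aged libraries (log2 fold change 3.12, SE 0.63), and eno1a (2.31), gapdhs (2.45), pkma (1.88) and pfkfb3 (1.5) also rose. When aged replicates 1 and 3 were left out, 5 of 18 rose and 1 fell. In the unfiltered fit 6 of 43 rose and none fell (median 0.19). Redox and glutathione genes rose in 9 of 27 tested members, with FTL (1.97), glrx (2.1) and MGST3 (1.87), and the glutathione transferase gsta.2 fell (−2.0). In the fit without aged replicates 1 and 3, TXN2 rose and gsta.2 fell, of 29 tested, and 4 and 2 of 26 rose without aged (Tm) replicates 1 and 2, left out in turn.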

How the data were processed

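PIC libraries were made with the CEL-seq2 procedure. The authors separated sequences by barcode, mapped them and deposited UMI counts per gene without normalization; per the labels' processing notes the tools were UMI-tools 1.0.0, HISAT2 2.1.0, featureCounts 1.6.4 and DESeq2 1.20.0, and the genome build is not given in the sources used here. Genes and symbols are those of the deposited table of 22954 genes, 7487 without a symbol; entries that share a symbol were kept apart by identifier, and counts of near-identical copies are uncertain.

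All 11 libraries were fitted in 1 model with edgeR 4.0.16 in R 4.3.3 (quasi-likelihood test, two-sided, TMM factors, filterByExpr, Benjamini-Hochberg adjustment over 3963 genes, threshold 0.1), and aged (Tm) was contrasted with aged. CPM are counts per 1000000 counts of a library, without TMM factors; fold changes are on the TMM scale. List medians were the same with genes absent from a group set at a floor of 3 counts. Alternatives were other scalings and filters, DESeq2 1.42.0, limma 3.58.1 (voom), the 7 libraries alone, thinning, a replicate block, other thresholds and each library left out; leaving out aged replicates 1 and 3 together, or genes above 1000 counts, was chosen after seeing the data.

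Named genes were the 15 largest and smallest log2 fold changes without overlap, the 10 largest changes in CPM and smallest adjusted p in each direction, the top members of each of 35 lists, and 18 set genes. Members outside this rule, named where a list had 5 or fewer in 1 direction, were chosen after their values were seen. The comparison and the lists were chosen with earlier results of these data known. Figures were drawn with matplotlib 3.10.9.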

Additional observations from a re-analysis of the deposited data

Results flagged for a closer look

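Within the 4 aged libraries, 3 named genes had 1 library far from the rest by Dixon's criterion, among 39 genes so tested, of which chance marks about 1 in 20. odc1 had 0 CPM in aged replicate 3, against 49.9 to 56.5 CPM in the other 3 aged libraries, and that library's floor of 3 counts is 58.5 CPM. ENSNFUG00015018517 had 345 CPM in aged replicate 1, and BX927253.1 had 1169 CPM in aged replicate 3. All 3 values are in the shallow aged replicates 1 and 3.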

How the results depend on the processing

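Calls (1534; 733 higher, 801 lower) moved by over 1.5 times under several settings. Thinning left 605 genes, with 144 calls (40 higher, 104 lower). Without aged replicates 1 and 3 there were 724 (534 and 190). Upper quartile factors gave 420 higher and 1225 lower, and total counts 370 higher and 1025 lower. No filter gave 1405 higher and 173 lower, and DESeq2 1513 higher. A threshold of 0.05 gave 508 lower, and one of 0.5 gave 3062 calls (1482 and 1580). Leaving out 1 library gave 714 to 1737 calls, 457 to 1019 higher and 254 to 718 lower. Of 194 named genes, the sign reversed for pofut2 without aged replicates 1 and 3 (0.14) and after thinning for pls3 (−0.11), pfkfb3 (−0.91), hnrnpaba (−0.27) and tp63 (−0.15). The exact permutation p for total counts was 0.0667 to 0.133 with 1 library left out, where the smallest p allowed rises; for genes detected it was 0.857 without thinning, with means of 15099 in aged (Tm) and 14444 in aged. The replicate block gave 1642 calls (797 and 845); same-numbered libraries deviated together with r of −0.06, 0.38 and 0.16, so the numbers were not taken to pair the samples. The causes of these shifts were not tested. Depth limits the aged group most: 1 count is 26.6 CPM in aged replicate 1.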

Other observations

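Of lysosomal and autophagy genes, 3 of 26 tested (11.5%) rose and 4 (15.4%) fell, below the 18.5% and 20.2% of all tested genes. Of 26 tested, NPC2, which carries cholesterol out of lysosomes, rose with 300, 320 and 112 CPM in the aged (Tm) libraries, against 53.1, 71.6, 39.0 and 49.9 CPM in the aged libraries (log2 fold change 2.53, SE 0.56, edgeR adjusted p = 0.00536). The autophagy receptor sqstm1 (1.84) and ATP6V1A (1.35) also rose, and ULK1B (−1.58), ATG7 (−1.56), gusb (−1.39) and the protease gene CTSBA (−1.21) fell. Without aged replicates 1 and 3, NPC2 was the only one of 31 to pass. In lipid and sterol metabolism, sptlc2b, of the first step of sphingolipid synthesis (2.33), apoeb (2.25), HMGCRB, of sterol synthesis (1.6), HADHAB (1.52) and PMVK (1.44) rose, and the desaturase fads2 (−1.72) and aclyb (−1.37) fell, of 16 tested. The shares of this lipid list were 31.25% higher and 12.5% lower. Without those 2 libraries sptlc2b and plin2 rose. The lipid rises numbered 0 and 2 without aged (Tm) replicates 1 and 2, and 3 without aged replicate 3 or 4.

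Of 54 tested solute carriers, 7 (13.0%) rose and 13 (24.1%) fell, against 18.5% and 20.2% of all tested genes. SLC3A2 (3.24) and the anion exchanger slc26a6 (−2.67) were the extremes. Without aged replicates 1 and 3, 7 of 80 rose and 5 fell. Rises of solute carriers numbered 3, 4 and 11 without aged (Tm) replicates 1, 2 and 3, and falls 8 without aged (Tm) replicate 1 or 2 or aged replicate 1 and 7 without aged replicate 3. In the unfiltered fit, 11 of 381 rose and 2 fell. Of 24 tested zinc finger genes, ZNFX1, ZNF706 and ZNF593 rose (12.5%), and zbtb18, ZNF423, ZNF503 and znf410 fell (16.7%), both below the shares of all tested genes. Without aged replicates 1 and 3, ZNFX1, ZNF593 and si:zfos-1192g2.3 rose and ZNF385D fell, of 31. ZNFX1 rested on 1 library, with 643, 50.1 and 129 CPM in the aged (Tm) libraries, against 26.6, 45.2, 77.9 and 111 CPM in the aged libraries. The medians of the autophagy, lipid and zinc finger lists were positive with TMM factors (0.20, 0.13 and 0.18) and negative with total counts alone (−0.25, −0.35 and −0.27).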
